A study of Homo sapiens with 2 samples.

Results

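The secreted factor genes GDF15, ERFE, STC1, STC2, VEGFA and ADM were followed in 2 RNA-seq libraries of the H1299 line, which derives from a lymph node metastasis of a human lung carcinoma of the non-small cell type. They were taken by symbol from the 38637 genes listed, and all 6 were found. Cells labelled PHF12 KD, with a sample title that carries the prefix si, gave 1 library. Cells labelled with no treatment, with a title that ends in nc, gave the other. Both carry the genotype label wild type. PHF12 encodes a PHD finger subunit of a Sin3 and histone deacetylase corepressor complex, and the study is concerned with PHF12, HDAC1 and the EGFR/AKT pathway. The 6 genes were picked as secreted stress factors partly because some of them were far lower in the knockdown library, so their differences are a description with no test.

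The proteins share a way of acting rather than a family. Cells under nutrient, endoplasmic reticulum or oxygen stress are known to transcribe several of these genes and to release their products. Such products act on neighbouring cells or distant organs. GDF15 is a divergent member of the TGF-beta superfamily that lowers appetite through the receptor GFRAL in the hindbrain. ERFE, or erythroferrone, is a hormone best known from erythroblasts that binds bone morphogenetic proteins and so lowers hepcidin in the liver. STC1 and STC2 are stanniocalcins, dimeric glycoproteins that inhibit the protease PAPP-A. VEGFA is the main growth factor for blood vessels, and ADM encodes the vasodilator peptide adrenomedullin. In the integrated stress response, kinases that phosphorylate the initiation factor eIF2 favour translation of ATF4, a transcription factor whose known targets include STC2. In hypoxia, HIF factors are known to act on VEGFA and ADM.

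The upstream sequences are shown because GDF15, ERFE and STC2 were lower together while ADM was not, and this is the stretch in which elements of stress-activated factors can be looked for. RefSeq entries (GRCh38.p14) were matched for 4 of the 6 genes, and the 250 bases before each annotated start are printed 5′ to 3′ on the strand of the gene. They are chr19:18385908-18386157 for GDF15, chr2:238158720-238158969 for ERFE and chr11:10304823-10305072 for ADM, all on the plus strand, and chr5:173328415-173328664 on the minus strand for STC2. Capitals mark GGGCGG (the GC box, CCGCCC on the other strand), GCGTG (a core of hypoxia response elements, CACGC on the other strand) and TATAA (the core of the TATA box).
GDF15: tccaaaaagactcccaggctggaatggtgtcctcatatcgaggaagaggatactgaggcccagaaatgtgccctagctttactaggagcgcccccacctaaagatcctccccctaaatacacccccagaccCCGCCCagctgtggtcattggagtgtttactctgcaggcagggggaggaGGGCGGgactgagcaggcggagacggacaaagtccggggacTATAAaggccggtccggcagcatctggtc
ERFE: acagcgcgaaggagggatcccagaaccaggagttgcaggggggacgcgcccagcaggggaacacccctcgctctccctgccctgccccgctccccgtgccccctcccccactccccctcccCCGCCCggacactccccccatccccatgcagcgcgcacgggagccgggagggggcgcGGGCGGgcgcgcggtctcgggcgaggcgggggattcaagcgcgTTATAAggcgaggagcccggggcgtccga
STC2: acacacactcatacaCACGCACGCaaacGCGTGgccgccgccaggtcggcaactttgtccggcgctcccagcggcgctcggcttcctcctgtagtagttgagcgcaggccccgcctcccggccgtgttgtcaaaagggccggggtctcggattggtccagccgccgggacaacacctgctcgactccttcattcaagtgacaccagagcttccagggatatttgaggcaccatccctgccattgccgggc
ADM: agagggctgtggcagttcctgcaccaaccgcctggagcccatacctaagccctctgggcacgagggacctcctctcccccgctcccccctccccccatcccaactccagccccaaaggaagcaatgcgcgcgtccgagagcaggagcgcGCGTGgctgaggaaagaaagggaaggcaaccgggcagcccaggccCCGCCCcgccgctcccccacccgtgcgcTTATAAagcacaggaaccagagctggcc

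The words searched on both strands were TGATGNAAN, the composite element bound by ATF4 with C/EBP partners, TGACGTCA, the cAMP response element, ACGTG, the A form of the hypoxia response core, GCGTG, its G form, TGANTCA, the AP-1 site, and GGGCGG, the GC box. After the sequences were seen, TATAA was added. TGATGNAAN was found in none of the 4 windows and in 3.18% of 27305 windows of the same length, or 1.29% of the 10329 windows of measured protein-coding genes. TGACGTCA (1.77% of all windows and 2.95% of those of measured protein-coding genes), ACGTG (18.7% and 23.6%) and TGANTCA (6.60% and 3.58%) were also found in none of the 4. GCGTG lay 3 times upstream of STC2, with 2 of the matches sharing a base, and 1 time upstream of ADM, against 31.9% of all windows and 46.1% of those of measured protein-coding genes. GGGCGG lay 2 times each upstream of GDF15 and ERFE and 1 time upstream of ADM, against 42.3% of all windows and 68.1% of those of measured protein-coding genes. TATAA on the strand of the gene started between 40 and 20 bases before the start of GDF15, ERFE and ADM, a position at which 4.22% of all windows and 2.73% of those of measured protein-coding genes held it. These matches describe letters in short windows, and a window without a word says nothing about the factor.

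**Figure D1:**
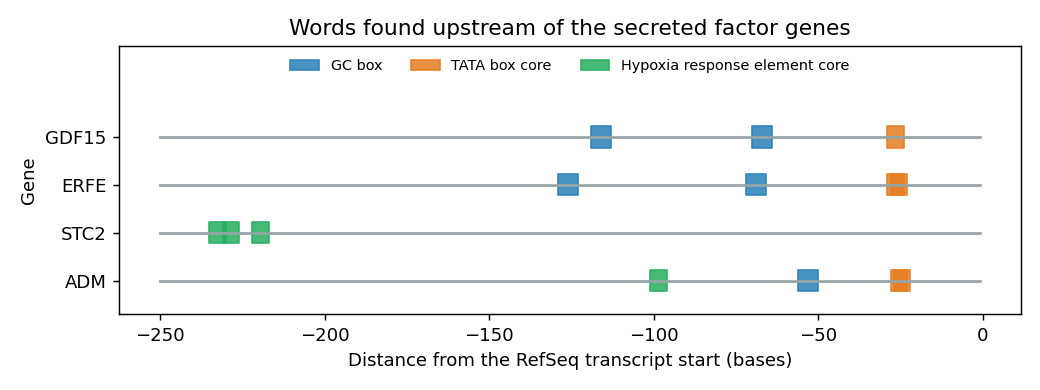
Words found in the 250 bases upstream of GDF15, ERFE, STC2 and ADM, 1 gene per line, with the distance in bases from the RefSeq transcript start on the x axis and coloured boxes for the GC box, the TATA box core and the G form of the hypoxia response core. GDF15, ERFE and ADM each have a TATA core at about the same distance from the start, and STC2 has none.

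The knockdown library held 26084594 counts and the control library 24740581 counts, and 14559 genes averaged 1 CPM or more over both, CPM being counts per 1000000 scaled counts. All 6 genes passed this filter. PHF12 itself had 756 counts in the knockdown library and 947 in the control library, a ratio of 0.753 (0.683 to 0.829). This is less than 1.5-fold lower, and genes with a lower ratio made up 4.57% of those measured. In the markers of the line, vimentin (VIM) stood at 4876 TPM in the knockdown library and 5349 in the control library. In the same order, KRT18 stood at 1772 and 2189 TPM, KRT8 at 888 and 1147, AXL at 673 and 679, and CDH2 at 28.7 and 24.4. CDH1 and SFTPC had no counts in either library. The other epithelial and lung markers were low, with 25 counts in the knockdown library and 19 in the control library for EPCAM, 5 and 17 for NKX2-1, and 12 and 8 for NAPSA. Among 9 markers of other cell types, PTPRC and HBB had no counts, 6 stood at or below 1.14 TPM in both libraries, and CD68, a lysosomal protein that many cells make, stood at 320 TPM in the knockdown library and 257 TPM in the control library. The sum of all 9 was 323 TPM in the knockdown library and 259 TPM in the control library, and the part of these levels in the results was not tested. Every ratio below sets the knockdown level over the control level. As each group is 1 library, nothing was checked in replicates, no p-value is given, and the 95% intervals cover counting error only, so they describe these 2 libraries and not the conditions.

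Of the 6 genes, GDF15, ERFE and STC2 were at least 1.5-fold lower in the knockdown library and none was at least 1.5-fold higher. The same size was reached downwards by 1.41% of all genes measured (205 genes) and upwards by 1.33% (193 genes). These shares stand beside the count as background only, since the choice of genes used this comparison.

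ERFE was the lowest of the 6. It had 110 counts in the knockdown library and 268 in the control library, and the deposited TPM values, which are levels per length, were 4.04 and 10.3. The ratio was 0.387 (0.307 to 0.485), a log2 ratio of −1.37 (−1.70 to −1.04). ERFE ranked 4th from the lowest of the 14559 genes measured. It lies on chromosome 2 from 238158970 to 238168890 on the plus strand (hg38), and no other listed gene overlaps it. ILKAP, the next gene, lies on the opposite strand 1510 bases beyond its end and had 659 counts in the knockdown library and 571 in the control library, a log2 ratio of 0.12 (−0.04 to 0.29).

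GDF15 had 412 counts (25.9 TPM) in the knockdown library and 789 counts (51.6 TPM) in the control library. The ratio was 0.492 (0.436 to 0.555), a log2 ratio of −1.02 (−1.20 to −0.85), and the counting intervals of the 2 levels did not overlap, at 23.4 to 28.5 TPM in the knockdown library and 48.1 to 55.3 TPM in the control library. GDF15 ranked 18th from the lowest. Its listed span runs on chromosome 19 from 18382170 to 18389176 on the plus strand, which begins before the RefSeq start used for the sequence above. MIR3189, a microRNA gene on the same strand within that span, had no count in the knockdown library and 1 in the control library.

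STC2 had 1114 counts (28.3 TPM) in the knockdown library and 1902 counts (50.3 TPM) in the control library. The ratio was 0.552 (0.512 to 0.595), a log2 ratio of −0.86 (−0.96 to −0.75), and STC2 ranked 43rd from the lowest. Its span on the minus strand of chromosome 5, from 173314723 to 173328414, overlaps no other listed gene. STC1, the paralog, did not share this difference. It had 5291 counts (147.6 TPM) in the knockdown library and 4718 counts (137.2 TPM) in the control library, a log2 ratio of 0.08 (0.02 to 0.14), and its span is on the minus strand of chromosome 8, from 23841929 to 23854806. Genes with a lower ratio than STC1 made up 67.8% of those measured.

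VEGFA stood between the lower group and the level of no difference. It had 1451 counts (41.2 TPM) in the knockdown library and 1791 counts (53.1 TPM) in the control library, a ratio of 0.764 (0.712 to 0.819) and a log2 ratio of −0.39 (−0.49 to −0.29). Genes with a lower ratio made up 5.13% of those measured. VEGFA lies on chromosome 6 from 43770209 to 43786487 on the plus strand, inside the long listed span of POLR1C on the same strand. POLR1C had 1235 counts in the knockdown library and 1177 in the control library. Only the spans were compared, so it is not known whether any reads fit both genes.

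ADM had 270 counts (19.5 TPM) in the knockdown library and 274 counts (20.7 TPM) in the control library. Its ratio was 0.929 (0.783 to 1.10), an interval that holds 1, so no difference was detectable at this depth. It lies on chromosome 11 from 10305073 to 10307397 on the plus strand.

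**Figure D2:**
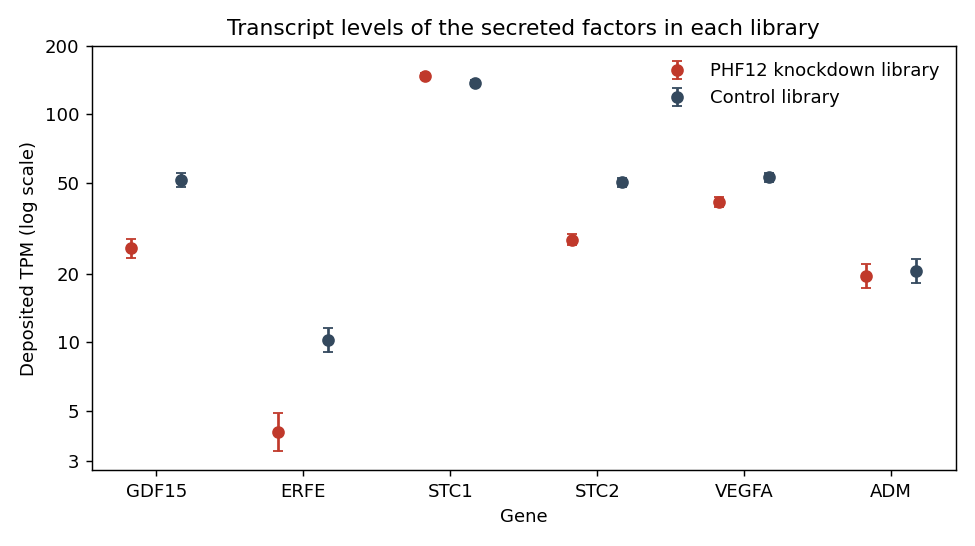
Deposited TPM on a log axis for each of the 6 genes, with the knockdown library at the left and the control library at the right of each pair and 95% counting intervals as bars. The pairs of GDF15, ERFE and STC2 stand far apart, at 25.9 against 51.6, 4.04 against 10.3 and 28.3 against 50.3 TPM, while those of STC1 and ADM lie close together.

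Per length, STC1 was the most abundant and ERFE the least abundant of the 6 in both libraries. In the knockdown library the order was STC1, VEGFA, STC2, GDF15, ADM and ERFE, where the intervals of STC2 (26.6 to 29.97 TPM) and GDF15 (23.4 to 28.5 TPM) overlapped. In the control library VEGFA (50.6 to 55.6 TPM), GDF15 (48.1 to 55.3 TPM) and STC2 (48.0 to 52.6 TPM) could not be ordered beyond counting error. The highest level was 36.5 times the lowest in the knockdown library and 13.4 times in the control library. All 6 together made up 266.5 TPM in the knockdown library and 323 TPM in the control library, of which STC1 gave 55.4% and 42.5%. GDF15, ERFE and STC2 summed to 58.2 TPM in the knockdown library and 112 TPM in the control library.

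Setting 1 gene's counts over another's within each library removes the scaling between libraries. In 12 of the 15 pairs the ratio differed between libraries by more than counting error. The genes were picked partly for such differences, so this count is a description only. It has no background from other pairs. Among single genes measured, the counting interval lay below 0 for 20.9% and above 0 for 20.3%. STC1 counts were 4.75 times STC2 counts in the knockdown library and 2.48 times in the control library, so the paralogs moved apart by a factor of 1.91 (1.76 to 2.08). GDF15 counts were 0.370 of STC2 counts in the knockdown library and 0.415 in the control library, a factor of 0.892 (0.773 to 1.03) that counting error covers. For GDF15 over ERFE the factor was 1.27 (0.983 to 1.65), also within counting error, and for ERFE over STC2 it was 0.701 (0.549 to 0.890). VEGFA against ADM stood at 5.37 in the knockdown library and 6.54 in the control library, a factor of 0.822 (0.683 to 0.990). The third pair within counting error was STC1 over ADM, at 1.14 (0.954 to 1.36).

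**Figure D3:**
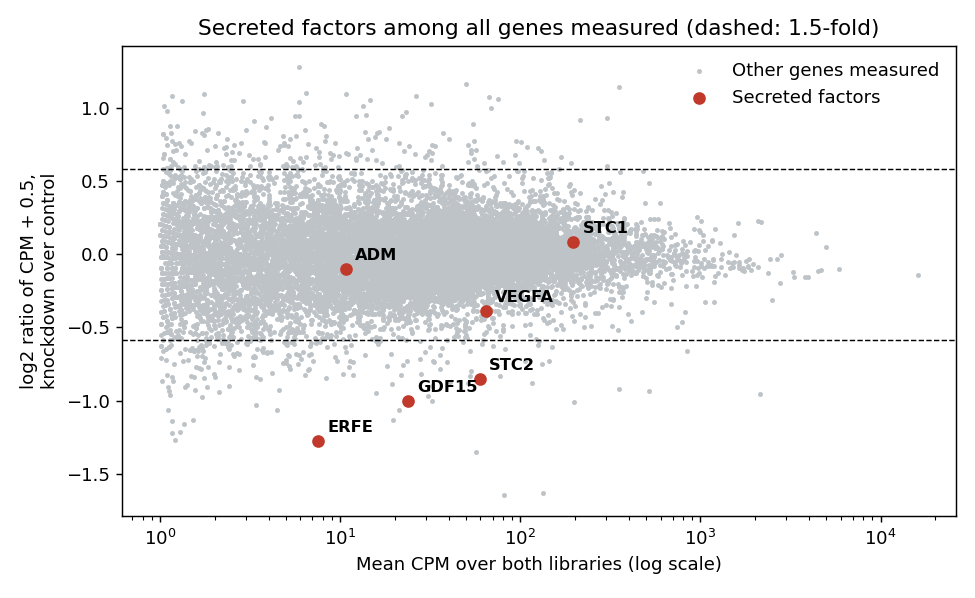
The log2 ratio of CPM plus 0.5, knockdown over control, against mean CPM on a log axis for the 14559 genes measured, in grey, with the 6 secreted factors in red. ERFE, GDF15 and STC2 lie below the lower dashed line of 1.5-fold, VEGFA lies above it, and ADM and STC1 lie near 0.

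The genes nearest to each of the lower factors in log2 ratio, over 2 libraries, were read out among the 11069 protein-coding genes that averaged 5 CPM or more. Nearest to GDF15 were PSMD10, a proteasome chaperone, at −1.02, the Golgi GTPase gene ARF1 at −1.01 and ELFN1 at −0.99. Nearest to ERFE was EMC10, which encodes part of a membrane protein insertase, at −1.37, followed by GAGE2A, a cancer-testis antigen with near-identical copies, at −1.64 and the apoptosis inhibitor gene BIRC3 at −1.66. Nearest to STC2 were CTH, the last enzyme of cysteine synthesis, the inhibitor of bHLH factors ID3 and the CDK inhibitor gene CDKN1C, each at −0.86. On this ratio, which carries no pseudocount, 2 of these protein-coding genes lay below ERFE, 4 below GDF15 and 22 below STC2. With 0.5 CPM added, as for the ranks above, 3 lay below ERFE, 6 below GDF15 and 17 below STC2.

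An earlier look at these libraries had found words of 7 bases that were frequent in the 3′ UTRs of lower genes (ACATCGA, and, shifted by 1 base, CATCGAA) and of higher genes (TCGGAGA, and, shifted by 1 base, ATCGGAG), so their presence was read for each factor in the longest annotated 3′ UTR of GENCODE release 29. ERFE held both words of the lower genes, overlapping by 6 bases, at chr2:238168552-238168559 on the plus strand (GRCh38), 316 bases before the end of a 3′ UTR of 1821 bases. This 3′ UTR comes from a partial transcript model, while the principal GENCODE model of ERFE ends at the stop codon, so it is not certain that ERFE transcripts in these cells hold the match. GDF15, STC1, STC2, VEGFA and ADM held none of the 4 words. The match is shown with its surroundings, the bases of both words in capitals.
ERFE 3′ UTR: tccaaaccccaACATCGAAtcaaacatctc

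A 3′ UTR was annotated for 12323 of the protein-coding genes measured, of which 2.71% held at least 1 of the words of the lower genes, and 0.552% (68 genes) held both in this overlapping form. Among the 171 such genes at least 1.5-fold lower, 14.04% held at least 1 and 6.43% (11 genes) the overlapping form, and ERFE is 1 of these. The words were chosen from the lower genes of the same libraries, so these shares are no separate evidence, and the part of the words in the ratio of ERFE was not tested. For GDF15 and STC2 the annotated 3′ UTRs, of 241 and 3134 bases, hold neither word.

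Regulators of the integrated stress response were read as the group known to act on GDF15, STC2 and VEGFA. All 14 were measured, and the interval lay below 0 for 8 and above 0 for 3, against 20.9% and 20.3% of all genes measured. Intervals are narrower at higher counts, and the shares over all genes, here and below, were not matched to the lists in level. The median log2 ratio was −0.24, against −0.01 over all genes. ATF4 transcript had 7983 counts in the knockdown library and 8673 in the control library, a log2 ratio of −0.20 (−0.25 to −0.16), while its protein, which is set by translation, was not measured. CEBPB, a C/EBP factor that pairs with ATF4, was the lowest of the group at −0.73 (−0.81 to −0.65), with 2079 and 3251 counts in the knockdown and control libraries. DDIT3, which encodes the stress factor CHOP, stood at −0.48 (−0.56 to −0.41), ATF3 at −0.52 (−0.69 to −0.36), CEBPG at −0.42 (−0.48 to −0.36) and the ATF4 inhibitor gene TRIB3 at −0.41 (−0.48 to −0.33). The eIF2 kinases were not lower: EIF2AK1 stood at 0.06 (0.01 to 0.12), EIF2AK2 (PKR) at 0.25 (0.17 to 0.33), EIF2AK3 (PERK) at 0.13 (−0.09 to 0.35) and EIF2AK4 (GCN2) at 0.10 (0.05 to 0.15). PPP1R15A, the stress-induced eIF2 phosphatase subunit, stood at −0.29 (−0.37 to −0.20), and its constitutive counterpart PPP1R15B at 0.10 (−0.04 to 0.23). ATF5, a factor related to ATF4, stood at −0.07 (−0.18 to 0.04), and the stress-induced chromatin protein gene NUPR1 at −0.54 (−0.91 to −0.18).

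**Figure D4:**
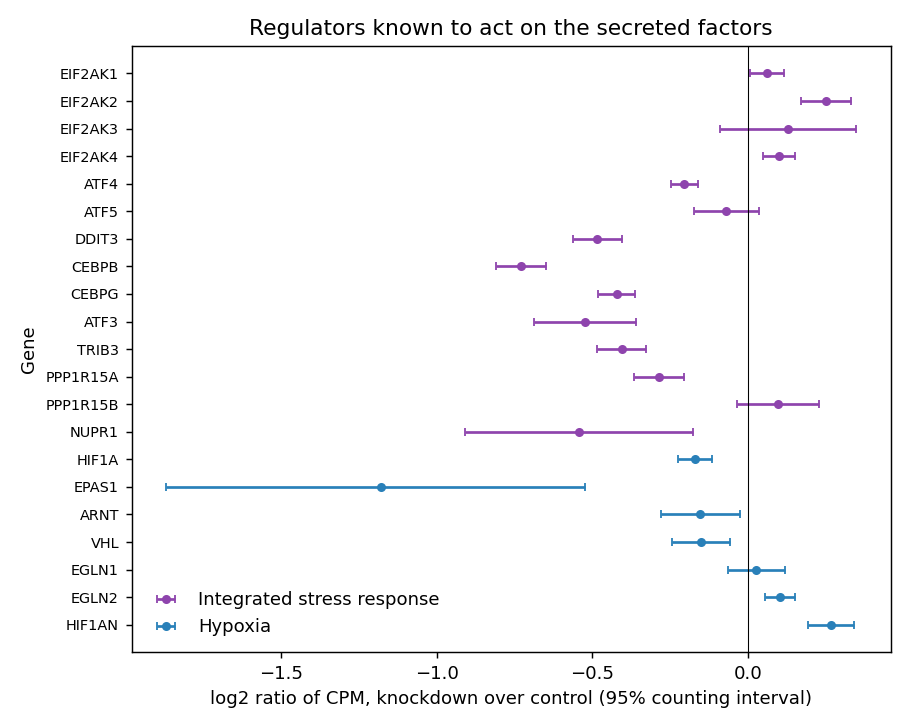
The log2 ratio, knockdown over control, with 95% counting intervals for the measured regulators of the integrated stress response and of hypoxia, 1 gene per line. CEBPB at −0.73 and EPAS1 at −1.18 stand lowest, and the kinases EIF2AK1 to EIF2AK4 stand at or above 0.

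Targets of ATF4 other than the 6 factors were lower in nearly every case. Of 25 genes measured, 24 lay below 0, and the median was −0.40. The interval lay below 0 for 21 and above 0 for none, against 20.9% and 20.3% of all genes, not matched in level. Of the 25, 5 were at least 1.5-fold lower, against 1.41% of all genes. An earlier reading of these libraries already showed ATF4 targets lower, and 3 of the 25 also stand among the regulators above, so the count is no independent support. The lowest were JDP2, an AP-1 family repressor, at −0.91 (−1.10 to −0.72), CTH at −0.86 (−1.12 to −0.60) and the glutathione-degrading enzyme gene CHAC1 at −0.84 (−0.96 to −0.73). STC2 at −0.86 lay level with these, and GDF15 at −1.02 lay below all 25. DDIT4, an mTOR inhibitor, stood at −0.76 (−0.83 to −0.68) and SESN2, a leucine sensor, at −0.65 (−0.74 to −0.56).

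The hypoxia side, known to act on VEGFA, ADM and both stanniocalcins, was read through its regulators and its targets. Of 10 regulators listed, 7 were measured. The interval lay below 0 for 4 of these regulators (57.1%) and above 0 for 2 (28.6%), against 20.9% and 20.3% of all genes. Their median log2 ratio was −0.15. HIF1A had 5307 counts in the knockdown library and 5635 in the control library, a log2 ratio of −0.17 (−0.23 to −0.12). Its partner ARNT stood at −0.15 (−0.28 to −0.03), VHL, which marks HIF for decay, at −0.15 (−0.24 to −0.06), and the HIF hydroxylase genes EGLN1 at 0.03 (−0.07 to 0.12), EGLN2 at 0.10 (0.06 to 0.15) and HIF1AN at 0.27 (0.19 to 0.34). EPAS1, which encodes HIF-2 alpha, stood at −1.18 (−1.87 to −0.52) on 29 counts in the knockdown library and 62 in the control library, and ranked 31st from the lowest of all genes measured. HIF3A had no counts in either library, ARNT2 had 5 counts in the knockdown library and 3 in the control library, and EGLN3 had 6 and 10, all under the filter. With 0.5 CPM added, none of the 23 HIF targets measured was at least 1.5-fold apart in either direction. Of all genes measured, 97.3% did not reach this size. The interval lay below 0 for 6 targets (26.1%) and above 0 for 4 (17.4%), against 20.9% and 20.3% of all genes. The median of the targets was −0.02. The lowest was NDRG1, named after its values were seen, with 26 counts in the knockdown library and 39 in the control library. Its log2 ratio was −0.67 (−1.44 to 0.08), beyond 1.5-fold, but −0.48 with 0.5 CPM added, within 1.5-fold. Among targets that averaged 5 CPM or more, the largest differences were those of ERO1A, an oxidase of endoplasmic reticulum disulfides, at 0.31 (0.23 to 0.40), the collagen cross-linking enzyme LOX at −0.28 (−0.48 to −0.08) and the glycolytic regulator PFKFB4 at 0.20 (0.08 to 0.32). ADM and STC1 lay within the range of this list, and VEGFA at −0.39 lay below the measured members other than NDRG1.

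**Figure D5:**
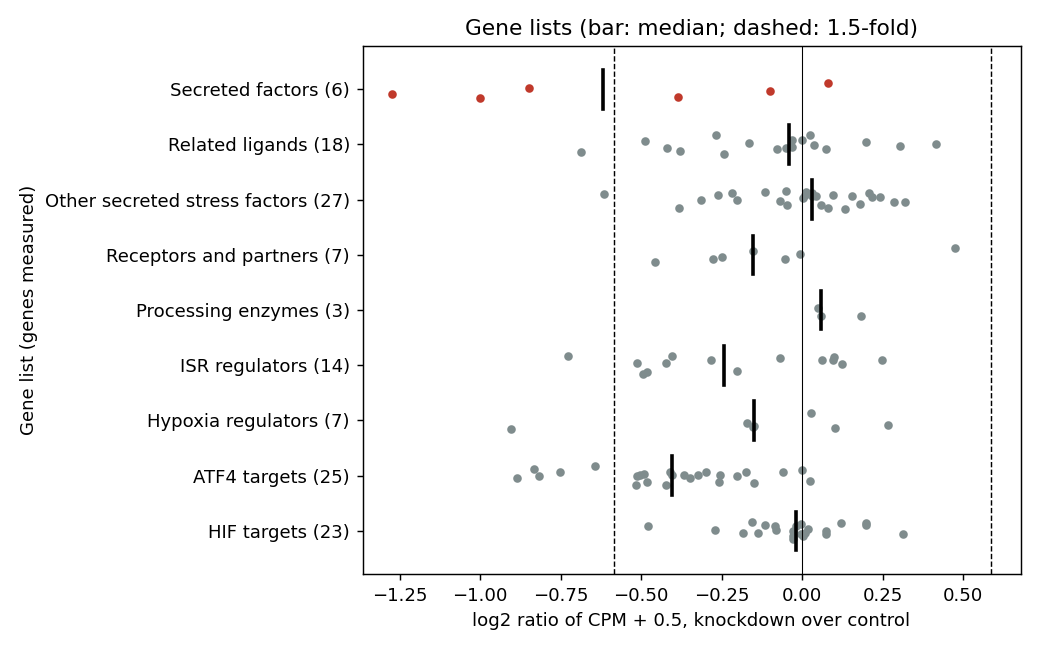
The log2 ratio of CPM plus 0.5, knockdown over control, for each measured gene of the secreted factors and of 8 lists around them, with 1 dot per gene, a black bar at the list's median and dashed lines at 1.5-fold. The ATF4 targets have the lowest median of these 8 lists, at −0.40, and the HIF targets centre near 0, at −0.02.

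Most receptors for these factors were at or near 0 counts in H1299. GFRAL and the VEGF receptor FLT1 had no counts in either library, which does not exclude a low level. For scale, 3 counts correspond to 0.115 CPM in the knockdown library and 0.122 CPM in the control library. RET, the co-receptor of GFRAL, had 1 count in the knockdown library and 3 in the control library. KDR, the main VEGF receptor of vessels, was measured at 59 counts in the knockdown library and 81 in the control library, a log2 ratio of −0.54 (−1.05 to −0.04), and the co-receptors NRP1 and NRP2 stood at −0.17 (−0.58 to 0.24) and −0.06 (−0.45 to 0.33). For adrenomedullin, CALCRL had 11 counts in the knockdown library and 9 in the control library, RAMP1 had 3 and 0, RAMP2 had 1 and 0, ACKR3 had 1 and 0, and RAMP3 had none in either.

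The stanniocalcin partners were uneven. The protease gene PAPPA had 11 counts in the knockdown library and 8 in the control library, and PAPPA2 had 8 and 3, all under the filter. IGFBP4, the binding protein that PAPP-A cleaves, had 307 counts in the knockdown library and 205 in the control library, a log2 ratio of 0.50 (0.24 to 0.76). Among the bone morphogenetic proteins, BMP6, which ERFE is known to bind, stood at −0.26 (−0.57 to 0.04) with 173 and 196 counts, BMP2 at −0.33 (−0.86 to 0.19) and BMP4 at −0.01 (−0.70 to 0.68), each with an interval that holds 0. The binding protein gene IGFBP5 had no counts in the knockdown library and 4 in the control library, BMP5 had 4 and 0, and BMP7 had 8 and 10, all under the filter. Hepcidin, HAMP, had no counts in either library. Of 21 receptors and partners listed, 7 passed the filter. None of the 7 was at least 1.5-fold apart, a size that 97.3% of all genes measured did not reach.

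Of 5 enzymes listed that process such precursors, 3 passed the filter. None of the 3 was at least 1.5-fold apart, a size that 97.3% of all genes measured did not reach. FURIN, which cleaves TGF-beta family precursors such as that of GDF15, had 3051 counts (69.8 TPM) in the knockdown library and 2780 counts (66.3 TPM) in the control library, a log2 ratio of 0.05 (−0.03 to 0.12). PCSK7, a related convertase, stood at 0.19 (0.06 to 0.31). PAM, which amidates adrenomedullin, stood at 0.06 (0.00065 to 0.11) with 86.6 TPM in the knockdown library and 81.8 TPM in the control library. The convertase genes PCSK5, with 3 counts in each library, and PCSK6, with 15 counts in the knockdown library and 13 in the control library, fell under the filter.

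Of 47 related ligands, 18 were measured, with a median log2 ratio of −0.04. Of these 18, 1 was at least 1.5-fold lower and none at least 1.5-fold higher, against 1.41% and 1.33% of all genes measured. The lower one was ADM2, or intermedin, a peptide of the adrenomedullin family. It had 272 counts in the knockdown library and 420 in the control library, a log2 ratio of −0.71 (−0.94 to −0.49), set beside the −0.11 (−0.35 to 0.14) of ADM. VEGFC, the lymphatic growth factor, stood at −0.40 (−0.65 to −0.14), level with VEGFA. In the TGF-beta superfamily TGFB2 stood at −0.53 (−0.86 to −0.20) and AMH at −0.25 (−0.46 to −0.04), both nearer to 0 than GDF15. C1QTNF6, from the C1q and TNF related family that ERFE also belongs to, stood at 0.31 (0.13 to 0.50).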

How the data were processed

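RNA-seq was measured in 2 poly(A)-selected libraries of H1299 cells, grouped by the treatment label, and the table's columns were matched to samples by title. The submitters' processing notes name HISAT2, HTSeq and the hg38 build. Versions, the strand setting and the oligonucleotides were not given in the sources used here. Values were deposited by the authors, per the file headers, raw counts for each gene and TPM, and dividing counts by the listed length returned the deposited TPM to within 1e-06. Reads of genes that overlap on opposite strands are uncertain, as the strand setting is unknown.

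Trimmed mean of M-values factors from edgeR 4.0.16 (R 4.3.3) were 1.00 for the knockdown and 0.997 for the control library. Ratios of CPM carry no pseudocount and have exact conditional Clopper-Pearson 95% intervals for 2 Poisson counts. Factors between pairs of genes have the conditional odds ratio interval. Counts and medians over lists, and ranks, use CPM plus 0.5 and genes that averaged 1 CPM or more. Intervals of TPM come from exact Poisson limits of the counts. Intervals and ratios were tested on simulated Poisson counts. These hold no variation between cultures or libraries, so only the computation was checked. The members and the lists were chosen with earlier results of these data known. Named are the 6 factors, PHF12, all receptors, partners, processing enzymes and regulators, up to 5 genes of each other list with the largest differences and a mean of 5 CPM or more, and the 3 protein-coding genes nearest to GDF15, ERFE and STC2. A regulator fixed for naming, with the lists built on it, is not reported here. The genes next to or overlapping a factor were named after their values were seen. Alternatives tried were total-count scaling, DESeq2 1.42.0 size factors, deposited TPM, other pseudocounts, other filters, protein-coding genes only, 2-fold and thinning. For 3′ UTRs, 97.3% of measured protein-coding genes had an annotation of at least 20 bases. Python 3.11.15, scipy 1.17.1 and matplotlib 3.10.9 were used.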

Additional observations from a re-analysis of the deposited data

How the results depend on the processing

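The log2 ratios of the 6 factors and PHF12 stayed within their counting intervals under all 6 alternatives tried for them, from −1.36 to −1.19 for ERFE, −1.05 to −0.98 for GDF15, −0.85 to −0.83 for STC2, −0.39 to −0.36 for VEGFA, −0.10 to −0.08 for ADM and 0.08 to 0.11 for STC1. The number of factors at least 1.5-fold lower was 3, and with a limit of 2-fold it was 1 (ERFE, as GDF15 falls just short once 0.5 CPM is added). Counts over all genes moved with the unit, the filter, the pseudocount and the fold limit. They were 349 lower and 462 higher with deposited TPM, 349 and 337 with no filter, 96 and 109 with a minimum of 5 CPM, 17 and 17 at 2-fold, and 333 and 314 without a pseudocount, the last chosen after the data were seen. With a pseudocount of 1 there were 132 lower genes. For the hypoxia regulators the number lower, EPAS1, was 0 with deposited TPM and with a minimum of 5 CPM, because EPAS1 then fell under the filter. Its levels were 0.574 TPM in the knockdown library and 1.28 TPM in the control library. The median of the hypoxia regulators left was −0.037 with deposited TPM. A pseudocount of 0.5 is already used for counts over lists. No paired analysis was possible because each group is 1 library. At the depth of ERFE, ADM and the receptors, counting error limits what can be seen.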

Other observations

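Other secreted stress and growth factors, 36 in the list and 27 measured, had a median log2 ratio of 0.03, against −0.01 over all genes. In this list 1 gene was at least 1.5-fold lower and none at least 1.5-fold higher, against 1.41% and 1.33% of all genes measured. The lower one was LIF, a cytokine of the interleukin 6 family, with 1255 counts in the knockdown library and 1820 in the control library and a log2 ratio of −0.62 (−0.73 to −0.52). IGFBP3, which carries insulin-like growth factors, stood at −0.40 (−0.66 to −0.14) and METRNL at −0.27 (−0.51 to −0.04). TGFA, an EGFR ligand, stood at 0.33 (0.12 to 0.53) and the matrix protein gene CCN2 at 0.29 (0.22 to 0.35). FGF21, another hormone that ATF4 is known to induce, had no counts in either library.

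ADM-DT, a long non-coding RNA whose listed end lies 85 bases from the start of ADM on the opposite strand, had 6 counts in the knockdown library and 23 in the control library, a ratio of 0.246 (0.0819 to 0.621), while ADM stood at 0.929 (0.783 to 1.10). It was looked at after the values were seen and lies under the filter, with a mean of 0.581 CPM.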
